A study of Mus musculus with 24 samples.

Results

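The DNA replication and replication repair genes are 41 of the 63862 genes listed in the deposited tables, and were taken as named genes of origin licensing, helicase activation, polymerases and primase, the sliding clamp and its loader, single-strand binding and Okazaki fragment joining, nucleotide supply, chromatin assembly and fork repair. RNA of 20 libraries was compared: lacrimal gland stem cell (LGSC) spheres of passage 2 at culture day 5 (n = 2), day 7, day 10 and day 14 (n = 3 each), and whole lacrimal gland (LG) of adult mice and of embryos labelled E17.5 and E19.5 (E, embryonic day; n = 3 each). All mice were C57BL/6. The LGSCs came from LG of mice aged 6 to 8 weeks, and the spheres grew in Matrigel with a serum-free medium that held EGF, FGF10, Wnt3A and the ROCK inhibitor Y-27632 and were passaged every 7 days. No label says whether libraries of a group came from separate cultures or animals, so the p-values measure only the spread between these samples, which may be technical. The values are FPKM (fragments scaled to transcript length and library size), a level per transcript length, and 39 of the 41 members were above 0 in at least 1 of the 20 libraries. Cdc45, a subunit of the replicative helicase, and Chaf1a, the large subunit of chromatin assembly factor 1, were listed at 0 in all 20.

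DNA replication is licensed before S phase, when the origin recognition complex, Cdc6 and Cdt1 load the ring of Mcm2 to Mcm7 on DNA. In S phase the GINS complex, Cdc45 and Mcm10 turn this ring into a working helicase, primase and the polymerases copy both strands, the Pcna clamp holds the polymerases in place, and Fen1 and Lig1 join the fragments of the lagging strand. Transcription of many of these genes peaks at the border of G1 and S phase under E2F factors, so that their RNA is high in tissues with many dividing cells and low in resting glands.

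The libraries held 6434711 to 9257981 recovered reads. In the spheres the epithelial cadherin Cdh1 had a mean of 616 FPKM at day 7, and Krt18, a keratin of simple epithelia, was at 689, 130.1 and 1195 FPKM in replicates 1, 2 and 3. The basal cell markers Krt5, Krt14 and Trp63 had low deposited values there, with day 7 means of 1.02, 11.3 and 0.312 FPKM. The epithelial markers Epcam and Krt8 were listed at 0 in all 20 libraries. Another library, of passage 10 (P10) LGSC spheres at day 7, held 25181779 reads and had its own gene list, and its values stand beside the others with no test. In it Krt5, Krt14 and Trp63 were at 4931, 7065 and 42.9 FPKM, and Epcam and Krt8 at 261 and 414 FPKM. In the passage 2 libraries Cdh1 and Krt18 were thus the high markers of the 7. The other 5 were far below P10, as were many genes, and what their low values say of the cell type was not tested. By staining, the study reports Epcam and high Krt14 in all cells of its spheres. By RT-PCR it reports high Krt14 and Krt5, and detected P63 (Trp63), in early and late passages. The passages it names there do not include that of the libraries compared here. The low deposited values of these markers are thus no evidence that the cells lacked them.

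The same gap to P10 divided the members. The day 7 mean at passage 2 was under 0.1 of the P10 value for 12 measured members: Orc6, Cdc6, Cdt1, Mcm2, Mcm6, Mcm7, Gins2, Pola2, Pold1, Pole, Rfc2 and Rfc3. For the other 27 the ratio ran from 0.126 (Usp1) to 3.67 (Fen1) with a median of 1.64. Cdc6 lay nearest below the border with a ratio of 0.0975. Of 10758 protein-coding genes with at least 1 FPKM in P10, 4681 (43.5%) were under the same border. Within the licensing ring, Mcm3, Mcm4 and Mcm5 had day 7 means of 58.6, 62.2 and 61.5 FPKM against 30.98, 37.2 and 26.1 in P10, whereas Mcm2, Mcm6 and Mcm7, subunits of the same ring, were at 0.129, 1.61 and 1.37 FPKM against 14.7, 31.6 and 34.02. This border was set after the data were seen, and what lies behind it was not tested. Of the 12 members under it, only Rfc3 is followed library by library below.

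**Figure D1:**
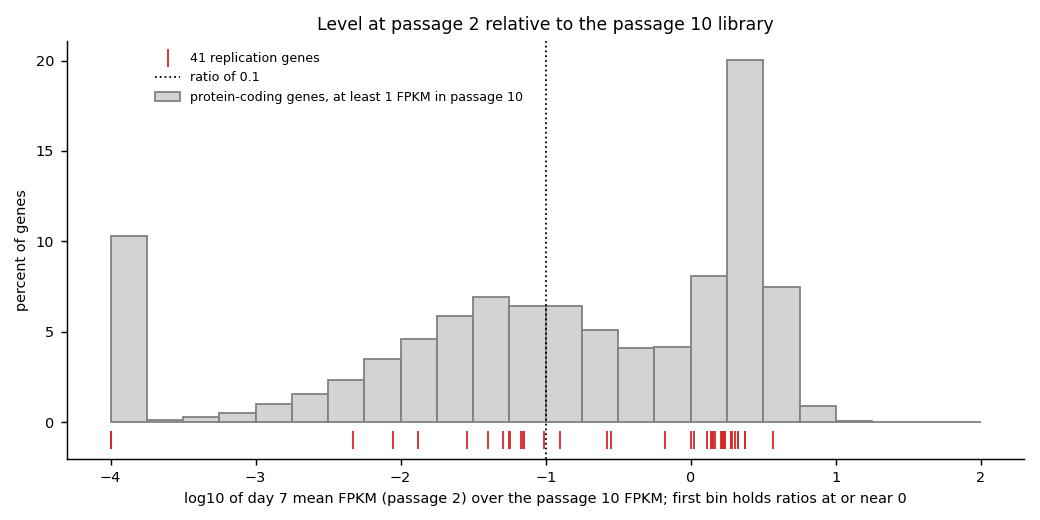
Log10 of the ratio of the passage 2 day 7 mean to the passage 10 value (horizontal axis) against the percentage of protein-coding genes with at least 1 FPKM in passage 10 (vertical axis), with a red tick for each of the 41 members and a dotted line at a ratio of 0.1. The 27 members to the right of the line spread from 0.126 to 3.67, and the 12 to its left, with Cdc45 and Chaf1a in the first bin, lie among the 43.5% of all genes found there.

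Promoter sequence was available for 32 of the 39 measured members in 36 windows (RefSeq, build GRCm38.p6, 250 bases before to 50 after the start of transcription) and was searched on both strands for 3 kinds of letters of cell cycle promoters. The E2F letters (TTTCCCGC, TTTGGCGC, TTTCGCGC or TTTGGCGG) were in 14 of the 36 windows (38.9%) and in 777 of 32851 windows of all genes (2.37%). The NF-Y box CCAAT was in 20 windows (55.6%) against 37.4% of all windows. The CHR letters of genes expressed late in the cell cycle (TTTGAA or TTCGAA) were in 4 windows (11.1%) against 19.2%. A match is a description of letters and not of binding. The stretches below show the E2F letters upstream of the start in the 5 members with such a match whose slope on culture day passed the test below, with the E2F letters and the NF-Y box, read on either strand, in capitals. Each runs from 20 bases before its first E2F letter to the start, and in Mcm5 a pair of overlapping matches is read as 1 run of capitals.
Orc1, chr4:108579407-108579453, + strand: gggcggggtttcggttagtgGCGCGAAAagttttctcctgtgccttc
Mcm5, chr8:75109336-75109508, + strand: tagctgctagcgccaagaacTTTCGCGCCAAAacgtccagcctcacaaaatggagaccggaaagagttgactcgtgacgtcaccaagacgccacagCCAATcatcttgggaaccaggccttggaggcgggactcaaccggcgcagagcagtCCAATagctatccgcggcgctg
Pola1, chrX:93632156-93632313, − strand: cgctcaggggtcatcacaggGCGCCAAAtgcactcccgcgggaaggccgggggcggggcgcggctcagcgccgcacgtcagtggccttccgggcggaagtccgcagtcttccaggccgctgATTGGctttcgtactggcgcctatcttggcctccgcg
Rfc3, chr5:151651209-151651238, − strand: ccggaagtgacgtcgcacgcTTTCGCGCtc
Rpa1, chr11:75348384-75348620, − strand: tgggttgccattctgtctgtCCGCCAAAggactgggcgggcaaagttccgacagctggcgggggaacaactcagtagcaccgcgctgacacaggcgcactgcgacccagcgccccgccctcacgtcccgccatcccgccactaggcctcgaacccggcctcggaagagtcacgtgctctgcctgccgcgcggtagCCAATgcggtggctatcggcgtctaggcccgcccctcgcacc
Of these 5, Orc1, Mcm5, Pola1 and Rpa1 fell with culture time in the spheres and Rfc3 rose, as described next. The windows of Ticrr, Pcna, Rfc4, Rfc5, Fen1, Rrm1, Chaf1b, Brca1, Brip1 and Fanci held none of the E2F letters and these genes fell as well. Mcm3, Pole2 and Lig1 fell too, with E2F letters only after a start.

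The first question was how replication genes moved as passage 2 spheres aged from day 5 to day 14. Replication genes fell with culture day, at least 1 of them in every role. Of 33 members tested (mean of at least 0.5 FPKM over the 11 sphere libraries), 20 fell and 1 rose by the slope on culture day (limma on log2(FPKM + 1) with Benjamini-Hochberg adjustment over all genes tested, threshold 0.05). Over all 15584 genes tested, 1.5% fell and 0.648% rose. The median slope of the members was -0.12 per day on the log2 scale. Among the 27 members within range of P10, the group mean was lower at each later day in 25 (13.2% of all genes). Every day 14 library lay below every day 5 library in 26 of them (17.8% of all genes). Over all 39 measured members the counts were 25 and 30. The 27 were set apart by their day 7 level, a filter that the shares of all genes do not have. At day 14 the 27 members within range held 19.54% (Orc1) to 113% (Tk1) of their day 5 mean, with a median of 38.2%. The members that fell were Orc1, Mcm3, Mcm4, Mcm5, Ticrr, Pola1, Prim2, Pole2, Pcna, Rfc4, Rfc5, Rpa1, Fen1, Lig1, Rrm1, Chaf1b, Brca1, Brip1, Fanci and Usp1.

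Among the licensing genes 4 of 7 tested fell. Mcm3, a subunit of the helicase ring, was at 79.7 and 65.7 FPKM (day 5), 52.8, 74.9 and 48.2 FPKM (day 7), 31.6, 61.9 and 42.2 FPKM (day 10) and 28.1, 29.7 and 25.5 FPKM (day 14). Its slope was -0.15 per day (SE 0.025, adjusted p = 0.0195), and every day 14 library lay below every library of the earlier days. Mcm5, its neighbour in the ring, was at 83.1 and 75.1 FPKM (day 5), 49.9, 89.6 and 44.9 FPKM (day 7), 22.1, 62.5 and 32.4 FPKM (day 10) and 17.1, 24.6 and 16.3 FPKM (day 14). The slope of Mcm5 was -0.22 per day (SE 0.038, adjusted p = 0.0195). The day 10 and day 14 libraries of Mcm5 overlapped, with day 10 replicate 1 below day 14 replicate 2. The ratio of Mcm5 to Mcm3 was 1.04 and 1.14 in the day 5 libraries and 0.606, 0.830 and 0.641 in those of day 14, lower in every day 14 library than in either day 5 library, a description with no test. Orc1, the largest subunit of the origin recognition complex, went from a mean of 6.79 ± 0.709 FPKM (SD, n = 2) at day 5 to 1.33 ± 0.371 (SD, n = 3) at day 14. Its slope was -0.18 per day (SE 0.03, adjusted p = 0.0159). Orc6, Mcm6 and Mcm7, all under the border to P10, had slopes of -0.04, -0.02 and 0.01 per day and did not pass the test, and Cdc6, Cdt1 and Mcm2 were too low to test.

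Of the 3 tested genes of helicase activation, Ticrr, which helps to load Cdc45 at origins, fell with a slope of -0.16 per day (SE 0.027, adjusted p = 0.0195). Gins1, a subunit of the GINS complex, was at 5.20 and 8.17 FPKM (day 5), 3.63, 4.81 and 3.17 FPKM (day 7), 2.24, 6.34 and 2.97 FPKM (day 10) and 1.18, 2.001 and 2.46 FPKM (day 14). Gins1 had a slope of -0.14 per day and missed the threshold (adjusted p = 0.0665), and it passed with the replicate number as a block (adjusted p = 0.0245). At day 10 replicate 2 of Gins1 stood above replicates 1 and 3. Mcm10, which binds the helicase when it fires, was at 6.05 and 5.56 FPKM (day 5), 4.03, 6.60 and 3.80 FPKM (day 7), 2.16, 4.96 and 2.75 FPKM (day 10) and 1.59, 3.08 and 2.16 FPKM (day 14). Its slope of -0.12 per day missed the threshold (adjusted p = 0.0576) and passed with the block (adjusted p = 0.0165). Both genes were thus lower at day 14 than at day 5 in every library, with a call that rests on the model.

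Among polymerase and primase genes, Pola1, Prim2 and Pole2 fell. Prim1, the catalytic subunit of primase, was at 16.3 and 24.7 FPKM (day 5), 11.8, 20.03 and 9.56 FPKM (day 7), 5.76, 16.6 and 8.37 FPKM (day 10) and 2.78, 8.89 and 4.67 FPKM (day 14). Its slope was -0.19 per day (SE 0.045) with an adjusted p of 0.054, and 0.00265 with the block. Replicate 2 was the highest of 3 at days 7, 10 and 14. Pole2, the second subunit of the leading strand polymerase epsilon, was at 13.7 and 11.4 FPKM (day 5), 8.55, 12.3 and 10.4 FPKM (day 7), 7.10, 9.37 and 6.86 FPKM (day 10) and 3.15, 6.08 and 6.14 FPKM (day 14). Pole2 fell with a slope of -0.13 per day (SE 0.024, adjusted p = 0.0277). Every day 14 library of Pole2 lay below every library of the earlier days.

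The clamp and its loader held the most abundant member and the only one to rise. Pcna, the sliding clamp, was at 217 and 224 FPKM (day 5), 162, 201 and 147 FPKM (day 7), 108, 180.1 and 131 FPKM (day 10) and 108, 112 and 98.02 FPKM (day 14). It fell with a slope of -0.11 per day (SE 0.02, adjusted p = 0.0268). Its lowest day 10 library lay within the range of day 14. Rfc4, a subunit of the clamp loader, was at 24.3 and 25.7 FPKM (day 5), 16.5, 21.6 and 13.98 FPKM (day 7), 10.8, 19.6 and 14.8 FPKM (day 10) and 7.61, 13.1 and 10.04 FPKM (day 14). The slope of Rfc4 was -0.12 per day (SE 0.027, adjusted p = 0.0419), and day 10 and day 14 overlapped. Rfc3, another subunit of the loader, was at 0.554 and 0.408 FPKM (day 5), 0.748, 0.46 and 0.68 FPKM (day 7), 0.814, 1.08 and 0.768 FPKM (day 10) and 1.06, 1.31 and 1.30 FPKM (day 14). It rose with a slope of 0.06 per day (SE 0.014, adjusted p = 0.0419), against the direction of its partners. The values of Rfc3 rested on 17 and 10 recovered reads at day 5 and 34, 42 and 39 at day 14. Rfc3 is among the members under 0.1 of P10, where it was at 8.91 FPKM, and its call was lost in 10 of the 12 fits that left out libraries (adjusted p up to 0.205).

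Lig1, the ligase that seals Okazaki fragments, was at 54.1 and 52.6 FPKM (day 5), 37.7, 48.3 and 27.6 FPKM (day 7), 24.2, 41.6 and 25.4 FPKM (day 10) and 18.2, 23.9 and 20.8 FPKM (day 14). It fell with a slope of -0.13 per day (SE 0.026, adjusted p = 0.0315), and all day 14 libraries lay below all earlier ones. Rpa2, the middle subunit of the single-strand binding protein, was at 28.2 and 29.9 FPKM (day 5), 16.5, 24.3 and 13.5 FPKM (day 7), 10.8, 21.95 and 16.5 FPKM (day 10) and 9.56, 15.9 and 12.4 FPKM (day 14). Its slope was -0.11 per day (adjusted p = 0.113, or 0.0456 in the fit with the block). Its day 14 libraries overlapped those of days 7 and 10. Rpa1, the large subunit, and Fen1, the flap endonuclease, fell with slopes of -0.11 (adjusted p = 0.0456) and -0.15 (adjusted p = 0.0303) per day.

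Nucleotide supply genes differed among themselves. Rrm1, the large subunit of ribonucleotide reductase, was at 40.05 and 50.4 FPKM (day 5), 26.4, 42.6 and 20.6 FPKM (day 7), 14.7, 33.6 and 17.8 FPKM (day 10) and 9.14, 19.001 and 11.6 FPKM (day 14). It fell with a slope of -0.18 per day (SE 0.038, adjusted p = 0.04). Rrm2, the small subunit, whose protein is made in S phase, was at 80.9 and 138 FPKM (day 5), 48.6, 130.2 and 45.2 FPKM (day 7), 21.5, 84.3 and 34.3 FPKM (day 10) and 11.01, 36.3 and 18.02 FPKM (day 14). Its slope of -0.26 per day was the steepest of the members, with a wide spread between the libraries of a day, and missed the threshold without the block (SE 0.061, adjusted p = 0.054, and 0.00159 with the block). The high library at days 7, 10 and 14 was replicate 2 each time. Tk1, the thymidine kinase of the salvage pathway, did not follow, with means of 2.87, 4.02, 3.49 and 3.24 FPKM at days 5, 7, 10 and 14 and a slope of -0.0034 per day (SE 0.02, adjusted p = 0.949). Tyms, thymidylate synthase, had a slope of -0.07 per day (adjusted p = 0.0926).

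Chaf1b, the middle subunit of chromatin assembly factor 1, was at 20.8 and 15.5 FPKM (day 5), 13.1, 16.2 and 11.5 FPKM (day 7), 7.41, 12.2 and 9.38 FPKM (day 10) and 6.42, 6.02 and 5.27 FPKM (day 14). Its adjusted p was the lowest of the members (0.00906, slope -0.16 per day, SE 0.021), and no day 14 library reached an earlier one. All 4 fork repair genes fell. Brca1, which protects stalled forks and mends breaks by recombination, was at 7.44 and 8.40 FPKM (day 5), 4.70, 7.37 and 4.29 FPKM (day 7), 3.35, 4.55 and 4.06 FPKM (day 10) and 1.59, 3.48 and 2.54 FPKM (day 14). Its slope was -0.14 per day (SE 0.025, adjusted p = 0.0231), and day 10 and day 14 overlapped through day 14 replicate 2. Fanci, the partner of Fancd2 in the repair of DNA crosslinks, was at 3.71 and 5.59 FPKM (day 5), 2.96, 4.58 and 2.90 FPKM (day 7), 1.70, 4.14 and 2.46 FPKM (day 10) and 0.913, 1.85 and 1.29 FPKM (day 14). It fell with a slope of -0.14 per day (SE 0.028, adjusted p = 0.0388). Brip1, a helicase that partners Brca1, and Usp1, which removes ubiquitin from Fancd2 and Pcna, fell with slopes of -0.11 (adjusted p = 0.0353) and -0.12 (adjusted p = 0.0224) per day.

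**Figure D2:**
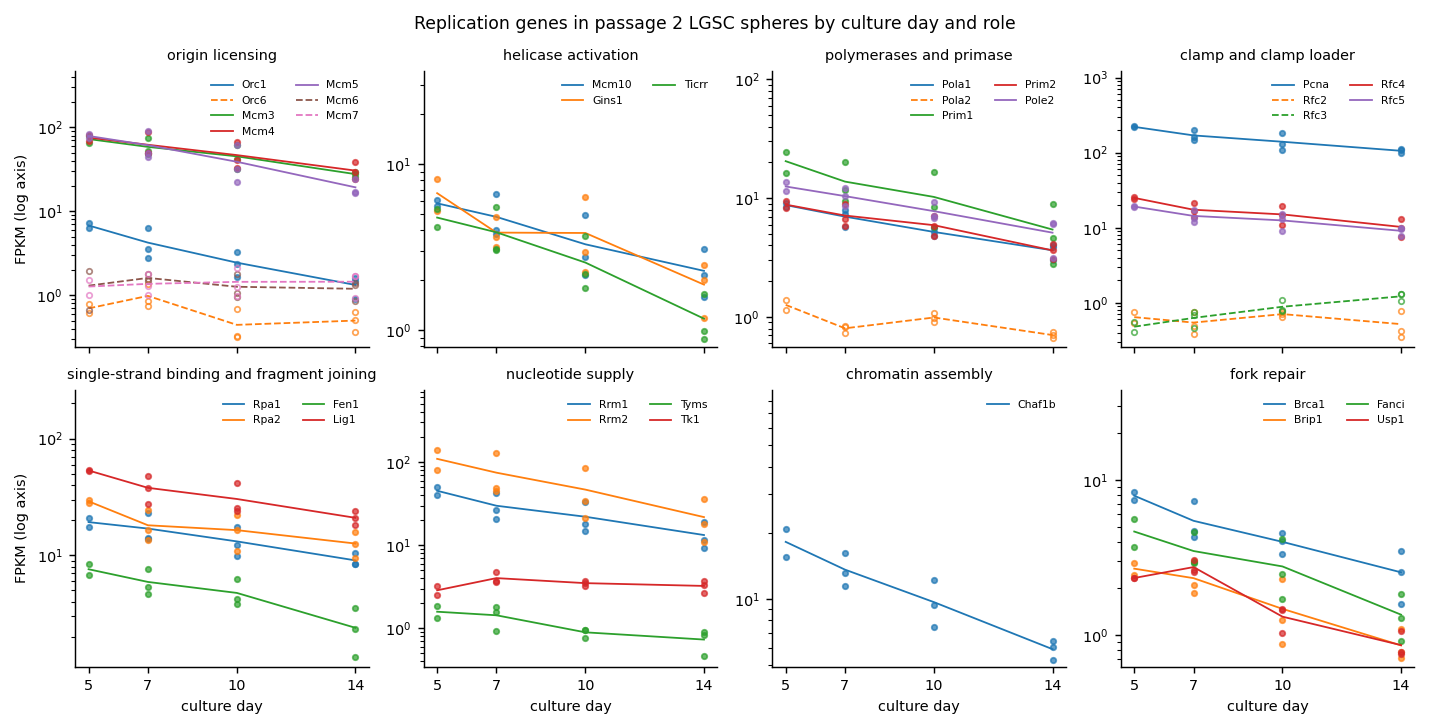
FPKM (vertical axis, log scale) against culture day (horizontal axis) of passage 2 LGSC spheres, 1 panel per role, with a point per library, lines through the day means, and dashed lines with open points for members under 0.1 of the passage 10 value. Most solid lines go down from day 5 to day 14, Tk1 is level, and Rfc3 (dashed) goes up from a mean of 0.481 to 1.22 FPKM.

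The count of members that fell depended on the libraries. The number called in either direction ran from 0 to 25 when single libraries were left out, with 0 without day 5 replicate 1, 2 without day 14 replicate 3, 5 without day 5 replicate 2, 9 without day 7 replicate 2 or day 10 replicate 3, and 12 without day 14 replicate 1. In all of these fits 27 or 28 of 33 members had an unadjusted p under 0.05, while the number of genes called over the whole table moved from 11 to 384. Over all genes, an unadjusted p under 0.05 was had by 2163 of 15502 (without day 14 replicate 3) to 3214 of 15617 (without day 7 replicate 1). With only days 7, 10 and 14 in the fit no member was called, though 26 of 33 had an unadjusted p under 0.05, against 1833 of all 15688 genes. The replicate numbers paired the culture samples, and with the block 26 members passed: the 21 named above and Mcm10, Gins1, Prim1, Rpa2 and Rrm2. Over all 15584 genes the block raised the calls from 101 higher and 233 lower to 330 and 453. Replicate 2 stood apart: it was the highest of 3 for 26, 25 and 21 of the 27 members within range at days 7, 10 and 14. Over all 39 measured members replicate 2 was so for 31, 32 and 25, against 40.3%, 40.6% and 37.0% of all genes. In the same libraries Krt18 was low, at 139, 130.1, 176 and 152 FPKM in replicate 2 at days 5, 7, 10 and 14 against 689 to 1734 FPKM in the others, and Krt5 was higher in replicate 2 at each day. Without replicate 2 of every day 19 members fell and none rose, where 138 of all 15261 genes fell and 142 rose. The secretory gene Ltf rose with culture day (slope 0.19 per day, SE 0.026, adjusted p = 0.00906), and Krt14 had a slope of -0.12 (adjusted p = 0.189). By qRT-PCR the study reports a significant rise of Ltf and fall of Krt14 with culture time. Ltf rested on 0 to 4 recovered reads at days 5 and 7 and on 39, 67 and 92 at day 14. Of the other secretory markers, Aqp5 had at most 6 reads in a sphere library, and Lpo had reads only in day 5 replicate 1. Mucl2 and Scgb2b2 were at 0 in all day 7 libraries and at 414 and 159 reads in day 5 replicate 2. They were at 414 and 163 reads in day 10 replicate 3 and at 351 and 187 in day 14 replicate 3. The remaining sphere libraries had at most 2 reads of either. The part of these markers in the fall of the members was not tested. Over the 12 fits that left out libraries, the call was held in 11 for Chaf1b, 10 for Mcm3, 9 for Mcm5 and Brca1, 7 for Pcna, 6 for Pole2, Lig1 and Rrm1, 4 for Rfc4 and Fanci, and 2 for Rfc3.

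The study also compared day 14 with day 7. In the limma fit of these libraries none of 33 members tested passed (0% of 15744 genes higher and 0% lower), and the smallest adjusted p of a member was 0.359 (limma with Benjamini-Hochberg adjustment). Yet 25 of the 33 had an unadjusted p under 0.05, against 1557 of the 15744 genes, and the libraries of day 14 all lay below those of day 7 for 27 members, against 9.12% of all genes. The median log2 difference of the members was -0.80. For Usp1 it was -1.01 (SE 0.16, adjusted p = 0.359), for Mcm5 -1.57 (SE 0.30, adjusted p = 0.419) and for Rrm2 -1.71 (SE 0.55, adjusted p = 0.446). With the block the count remained 0, with limma-voom on recovered reads it was 0, and with both it was 8, all lower, where that fit called 116 of 12112 genes (66 higher and 50 lower). Mcm3, Mcm5, Orc1, Chaf1b, Brip1, Fanci, Ticrr and Usp1 are on a list of genes that the study chose from these libraries by this contrast, so their direction here is not independent evidence.

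The next comparison set the embryonic glands against the adult gland. Nearly all replication genes were higher in the embryo. At E17.5, 33 of 35 members tested were higher than in adult LG and none was lower, with a median log2 difference of 2.24, where 29.1% of all 18578 genes tested were higher and 24.9% lower. Pola2 and Tk1 did not pass. At E19.5, 31 of 35 were higher (median 2.18), where 30.3% of all genes were higher and 23.9% lower, and Pola2, Fen1, Tk1 and Usp1 did not pass. Of the 23 members with at least 0.5 FPKM in both groups, 22 were higher at E17.5, and 20 were at E19.5. The libraries of E17.5 all lay above those of adult LG for 33 members (32.3% of all genes) and those of E19.5 for 32 (33% of all genes). Among the 27 members within range of P10 the ratio of the E17.5 to the adult mean ran from 1.10 (Tk1) to 50.2 (Ticrr) with a median of 9.18. The adult values of Ticrr rested on 1, 9 and 15 recovered reads.

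The cell make-up of these glands differed too. The summed level of 5 mesenchymal markers was 3779 to 4477 FPKM at E17.5 and 3848 to 4668 at E19.5, against 87.08 to 122.7 in adult LG, that of 4 endothelial markers 105.1 to 130.2 at E17.5 against 34.76 to 101.4, and that of 5 lacrimal secretory genes reached 1.551e+06 in adult LG. Their part in the result was not tested. In bulk RNA fewer cells that replicate and less RNA per cell cannot be told apart.

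On the log2(FPKM + 1) scale, which shrinks the change of low genes, the largest differences were those of Mcm3 and Mcm5 in the licensing ring, while the ratio of the E17.5 to the adult mean was higher for Ticrr, Fanci (40.8), Brca1 (23.1) and Mcm10 (22.8) than for Mcm3 (15.8) and Mcm5 (14.4). Mcm3 was at 8.84, 11.1 and 9.16 FPKM (adult), 149, 151 and 159 FPKM (E17.5) and 125, 147 and 156 FPKM (E19.5). The log2 difference from adult LG was 3.85 at E17.5 (SE 0.14, adjusted p = 3.88e-07) and 3.75 at E19.5. Mcm5 was at 10.8, 11.8 and 4.24 FPKM (adult), 124, 136 and 128 FPKM (E17.5) and 111, 132 and 145 FPKM (E19.5). Its difference was 3.82 at E17.5 (SE 0.31, adjusted p = 2.33e-05) and 3.81 at E19.5. Both were far above the adult range in all 6 embryonic libraries, and adult replicate 3 was low for Mcm5 and not for Mcm3.

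Among activation genes, Mcm10 was at 0.754, 0.779 and 0.358 FPKM (adult), 13.6, 14.2 and 15.4 FPKM (E17.5) and 14.4, 15.4 and 16.98 FPKM (E19.5). The E17.5 difference of Mcm10 was 3.25 (SE 0.15, adjusted p = 1.05e-06). Gins1 was at 3.01, 2.08 and 2.16 FPKM (adult), 13.1, 13.6 and 13.4 FPKM (E17.5) and 12.5, 16.4 and 17.9 FPKM (E19.5), with an E17.5 difference of 2.08 (SE 0.17, adjusted p = 2.14e-05). Neither gene overlapped between adult and embryo. Prim1 was at 5.04, 4.40 and 4.81 FPKM (adult), 43.6, 42.97 and 47.6 FPKM (E17.5) and 43.02, 51.3 and 61.1 FPKM (E19.5), and its E17.5 difference was 2.99 (SE 0.15, adjusted p = 1.78e-06). Pole2 was at 2.73, 3.61 and 5.55 FPKM (adult), 19.7, 21.4 and 25.6 FPKM (E17.5) and 21.4, 23.9 and 23.98 FPKM (E19.5), and its difference was 2.26 (SE 0.21, adjusted p = 4.49e-05). In Pole2 the highest adult library was replicate 3, unlike in Mcm5.

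Pcna, abundant in every group, was at 93.1, 85.4 and 60.3 FPKM (adult), 368, 377 and 406 FPKM (E17.5) and 293, 384 and 477 FPKM (E19.5). Its E17.5 difference was 2.28 (SE 0.22, adjusted p = 5.89e-05), with an adult mean of 79.6 FPKM that no other member reached. Rfc4 was at 13.8, 15.01 and 6.50 FPKM (adult), 44.6, 44.2 and 55.4 FPKM (E17.5) and 40.3, 48.7 and 66.4 FPKM (E19.5), with an E17.5 difference of 2.01 (SE 0.31, adjusted p = 0.000687). Rfc3 was at 0.344, 0.437 and 0.29 FPKM (adult), 1.78, 1.58 and 1.25 FPKM (E17.5) and 1.05, 1.23 and 0.988 FPKM (E19.5). It too was higher at E17.5 (log2 difference 0.90, SE 0.13, adjusted p = 0.000613), so in tissue it had the direction of its partners. Its adult values rested on 3, 5 and 8 recovered reads.

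Lig1 was at 10.1, 12.8 and 9.09 FPKM (adult), 98.7, 98.2 and 91.5 FPKM (E17.5) and 103, 96.4 and 99.7 FPKM (E19.5), an E17.5 difference of 3.07 (SE 0.15, adjusted p = 1.24e-06). Rpa2 was at 9.56, 10.3 and 8.94 FPKM (adult), 66.9, 71.2 and 68.8 FPKM (E17.5) and 56.5, 68.7 and 78.2 FPKM (E19.5), a difference of 2.72 (SE 0.15, adjusted p = 2.51e-06). Fen1, which acts between these at the fragment ends, had the smallest difference of its role, 1.09 for E17.5 (adjusted p = 0.0183) and, not past the test, 0.81 for E19.5 (adjusted p = 0.0574). Rrm1 was at 4.22, 4.84 and 3.30 FPKM (adult), 53.97, 53.8 and 57.9 FPKM (E17.5) and 45.2, 53.9 and 63.7 FPKM (E19.5), a difference of 3.47 (SE 0.17, adjusted p = 1.47e-06). Rrm2 was at 25.4, 25.95 and 8.47 FPKM (adult), 102, 98.6 and 104 FPKM (E17.5) and 86.7, 79.1 and 87.7 FPKM (E19.5), a difference of 2.44 (SE 0.36, adjusted p = 0.000582). The ratio of Rrm2 to Rrm1 was 6.03, 5.36 and 2.57 in the adult libraries and 1.805 to 1.896 at E17.5, so in every adult library the small subunit outweighed the large one by more than in any E17.5 library, a description with no test. Tk1 had group means of 2.61, 2.87 and 2.52 FPKM in adult, E17.5 and E19.5 LG and E17.5 and E19.5 differences of 0.11 (SE 0.15) and -0.02 that did not pass the test.

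Chaf1b was at 2.16, 2.65 and 1.78 FPKM (adult), 20.5, 23.5 and 21.7 FPKM (E17.5) and 23.2, 25.4 and 28.2 FPKM (E19.5), with an E17.5 difference of 2.85 (SE 0.15, adjusted p = 1.94e-06). Brca1 was at 0.389, 0.702 and 0.738 FPKM (adult), 13.7, 13.2 and 15.3 FPKM (E17.5) and 12.1, 12.996 and 14.4 FPKM (E19.5), with a difference of 3.23 (SE 0.14, adjusted p = 8.48e-07). Fanci was at 0.144, 0.219 and 0.272 FPKM (adult), 9.19, 7.60 and 9.11 FPKM (E17.5) and 7.31, 7.42 and 7.77 FPKM (E19.5), with a difference of 2.99 (SE 0.13, adjusted p = 6.6e-07). None of these overlapped between adult and embryo, and the adult values of Fanci rested on 2, 4 and 12 recovered reads. Usp1 had the smallest difference of the fork repair genes, 0.66 for E17.5 (adjusted p = 0.0258) and, not past the test, 0.41 for E19.5 (adjusted p = 0.129).

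**Figure D3:**
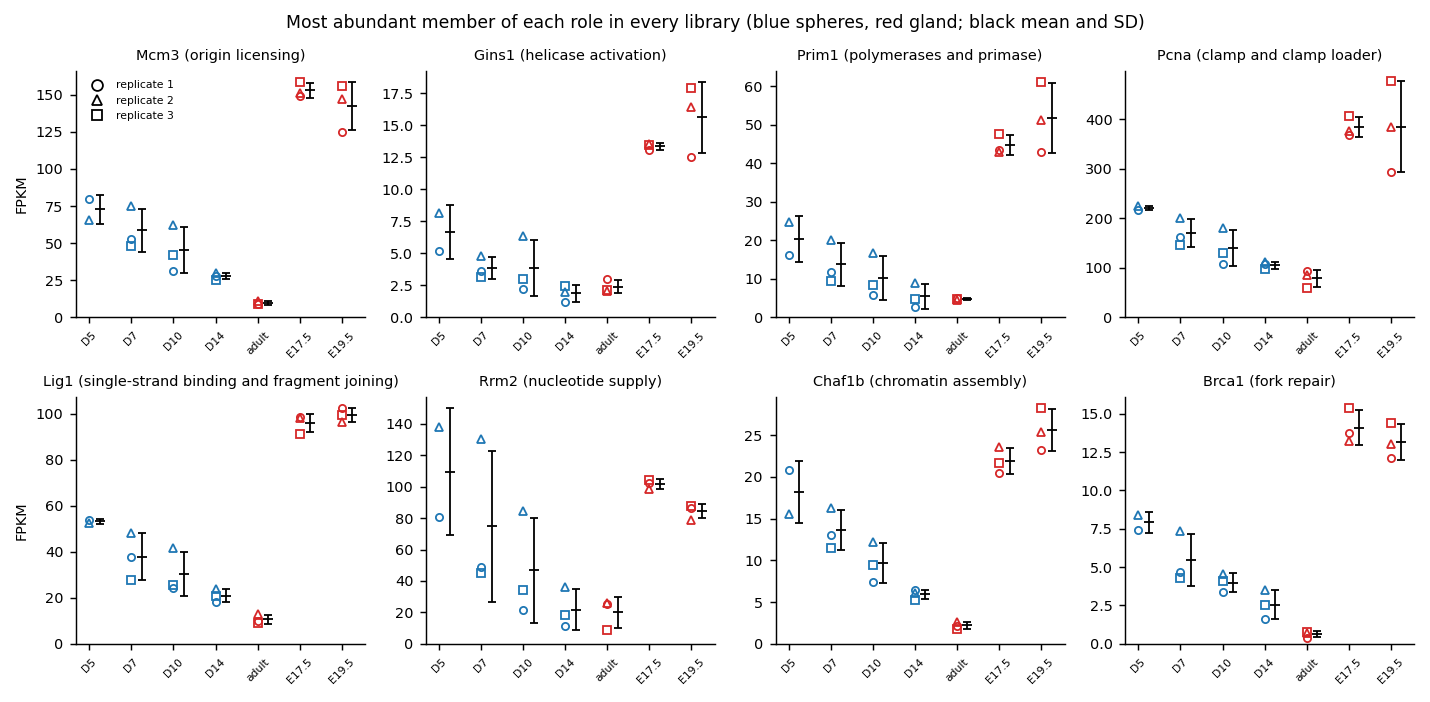
FPKM (vertical axes) of the most abundant member of each role in every library of the 7 groups (horizontal axes), with marker shape for the replicate number and the mean ± SD in black. In 6 of the 8 panels the 6 embryonic libraries lie above every adult and sphere library. In the panel of Chaf1b day 5 replicate 1 lies above the lowest embryonic library, and in that of Rrm2 sphere libraries of days 5, 7 and 10 reach into the embryonic range.

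The adult libraries were not alike. The top 10 genes held 60.4%, 59.6% and 31.3% of the reads of adult replicates 1, 2 and 3, and the recovered total was 2.67, 2.57 and 1.10 times the scale of the deposited FPKM. Replicate 3 was the lowest of 3 for 15 of the 27 members within range (36.4% of all genes), clearly so for Mcm5, Rfc4 and Rrm2. Scaling to recovered reads moved the median log2 difference of all genes from 0.05 to 0.63 at E17.5 and from 0.09 to 0.58 at E19.5, and the split of all calls from 5405 higher and 4634 lower to 8532 and 2164 at E17.5 and from 5637 and 4440 to 8117 and 2099 at E19.5. Under that scaling 34 of 35 members were higher in each comparison and none was lower, with member medians of 2.97 and 2.94.

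Between E19.5 and E17.5 none of 35 members passed (limma with Benjamini-Hochberg adjustment), where 1.11% of all genes were higher and 0.624% lower at E19.5. One member had an unadjusted p under 0.05 (0.0336, Ticrr), and the log2 differences ran from −0.34 (Ticrr, SE 0.13) to 0.33 (Mcm7, SE 0.19) with a median of −0.04, which was 0.04 without E19.5 replicate 1. For Mcm3 the difference was -0.11 (SE 0.14) and for Pcna -0.02 (SE 0.22). None passed with limma-voom on recovered reads either. A p that misses the threshold does not show equal levels.

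Spheres at day 7 were then set against the adult gland from which such cells are taken. Replication genes were higher in the spheres: 24 of 31 members tested were higher and none was lower, with a median log2 difference of 1.09, where 14.2% of all 17698 genes were higher and 21.1% lower. Of 23 members with at least 0.5 FPKM in both groups 18 were higher. Every sphere library lay above every adult library for 27 members (22.9% of all genes). The ratio of the means within range of P10 ran from 1.46 (Usp1) to 22.3 (Ticrr) with a median of 3.55. Members within range were set apart by their day 7 level, which is the numerator of this ratio. Under the border it ran from 1.13 (Pold1) to 4.996 (Pole), without Gins2, which was at 0 in adult LG. The E17.5, E19.5 and day 7 comparisons share the adult libraries.

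For the helicase ring the log2 difference was 2.46 for Mcm3 (SE 0.24, adjusted p = 0.000834) and 2.69 for Mcm5 (SE 0.44, adjusted p = 0.00498). Of the activation genes it was 1.81 for Mcm10 (SE 0.25, adjusted p = 0.0029), while Gins1 did not pass with 0.51 (SE 0.22, adjusted p = 0.12). The sphere libraries of all 4 genes lay above the adult libraries. Prim1 was higher by 1.30 (SE 0.29, adjusted p = 0.0155) and Pole2 by 1.23 (SE 0.27, adjusted p = 0.0155). Pcna was higher by 1.09 (SE 0.25, adjusted p = 0.0164), and Rfc4, with 0.58, did not pass (SE 0.35, adjusted p = 0.237). Rfc5, another subunit of the loader, passed with 0.92 (adjusted p = 0.041).

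Lig1 was higher in spheres by 1.72 on the log2 scale (SE 0.27, adjusted p = 0.00438) and Rpa2 by 0.81 (SE 0.26, adjusted p = 0.0491). In nucleotide supply Rrm1 was higher by 2.54 (SE 0.31, adjusted p = 0.00169) and Rrm2 by 1.83 (SE 0.57, adjusted p = 0.0477). The calls of Rpa2 and Rrm2 are near the threshold and were lost in each of the 6 fits that left out a library, those of Pcna and Pole2 in 3 (adjusted p up to 0.0603 and 0.0606) and that of Prim1 in 1 (0.0565). Chaf1b was higher by 2.19 (SE 0.22, adjusted p = 0.0009), Brca1 by 1.98 (SE 0.24, adjusted p = 0.00185) and Fanci by 1.87 (SE 0.21, adjusted p = 0.0014). Rfc3 was not tested in this fit, because its mean was under 0.5 FPKM.

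Over all members the count was 15 without adult replicate 2 and 21 without adult replicate 3. Scaled to recovered reads, 30 of 31 members were higher, with a shift of the median of all genes from −0.08 to 0.58 and a split of all calls from 2507 higher and 3731 lower to 5450 and 1946. Mesenchymal markers summed to at most 0.643 FPKM in the day 7 spheres and leukocyte markers to 2.745, against at least 87.08 and 13.43 in adult LG, and their part in these differences was not tested. By day 14 the ratio of sphere to adult mean within range of P10 had a median of 1.42, from 0.457 (Usp1) to 6.75 (Ticrr). This is a description with no test. These ratios rest on the deposited scale and were not rescaled. The recovered total was 2.67, 2.57 and 1.10 times that scale in adult replicates 1, 2 and 3, and 0.832 to 0.886 times at day 14. By recovered reads Usp1 was at 18, 31 and 29 in adult LG and at 25, 35 and 24 at day 14.

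Against the growing gland at E17.5, replication genes were lower in day 7 spheres. Of 35 members tested 27 were lower and none was higher, with a median log2 difference of -0.93, where 29.6% of all 17391 genes were lower and 18.1% higher. Of the 33 members with at least 0.5 FPKM in both groups 25 were lower. Cdc6 and Pold1, the others called, entered the fit only through their E17.5 values. The sphere libraries all lay below those of E17.5 for 28 members (35.4% of all genes). Cell make-up differed here as well. Mesenchymal markers summed to at most 0.643 FPKM in the day 7 spheres and endothelial markers to 0.2006, against at least 3779 and 105.1 at E17.5. Their part in these differences was not tested. Day 7 spheres held 26.2% (Rpa2) to 140% (Tk1) of the E17.5 mean within range of P10, with a median of 44.2%. That range too was set by the day 7 level. Under the border the share ran from 23.4% (Cdc6) to 212% (Gins2, at most 1 recovered read per library here).

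On the log2(FPKM + 1) scale Rpa2 had the largest difference, -1.91 (SE 0.20, adjusted p = 0.000573), followed by Prim1 with -1.69 (SE 0.25, adjusted p = 0.00235) and Gins1 with -1.57 (SE 0.14, adjusted p = 0.000306). Mcm10 was lower with -1.44 (SE 0.19, adjusted p = 0.00153) and Rfc4 with -1.43 (SE 0.18, adjusted p = 0.00112). Mcm3 and Mcm5 were lower with -1.39 (SE 0.17, adjusted p = 0.000955) and -1.13 (SE 0.26, adjusted p = 0.0126). By the ratio of means the order was Cdc6 (23.4% of E17.5, under the border to P10 and under 0.5 FPKM in the spheres), Rpa2, Gins1 (28.99%) and Prim1 (30.8%). Every sphere library of the 7 genes from Rpa2 to Mcm5 lay below every embryonic library. Lig1 was lower with -1.35 (adjusted p = 0.00208), Pcna with -1.18 (adjusted p = 0.000574), Pole2 with -1.03 (adjusted p = 0.00283), Brca1 with -1.25 (adjusted p = 0.0026) and Fanci with -1.12 (adjusted p = 0.00281). Rrm1 was lower with -0.93 (adjusted p = 0.0242), Chaf1b with -0.66 (adjusted p = 0.0101) and Rfc3 with -0.64 (adjusted p = 0.0107). The call of Rrm1 was held in 2 of the 6 fits that left out a library (adjusted p up to 0.0813). Rrm2, at 48.6, 130.2 and 45.2 FPKM in the spheres and 102, 98.6 and 104 at E17.5, did not pass, with -0.62 (SE 0.40, adjusted p = 0.245), and sphere replicate 2 lay above the embryonic libraries and the others below. Orc1, Orc6, Mcm7, Pola2, Fen1, Tk1 and Usp1 did not pass either. Tk1 went the other way, at 3.57, 3.69 and 4.79 FPKM in the spheres and 2.82, 2.85 and 2.93 at E17.5 (log2 difference 0.37, SE 0.13, adjusted p = 0.0571), and its groups did not overlap. With libraries centred on their medians or scaled to recovered reads Tk1 passed as higher in the spheres.

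**Figure D4:**
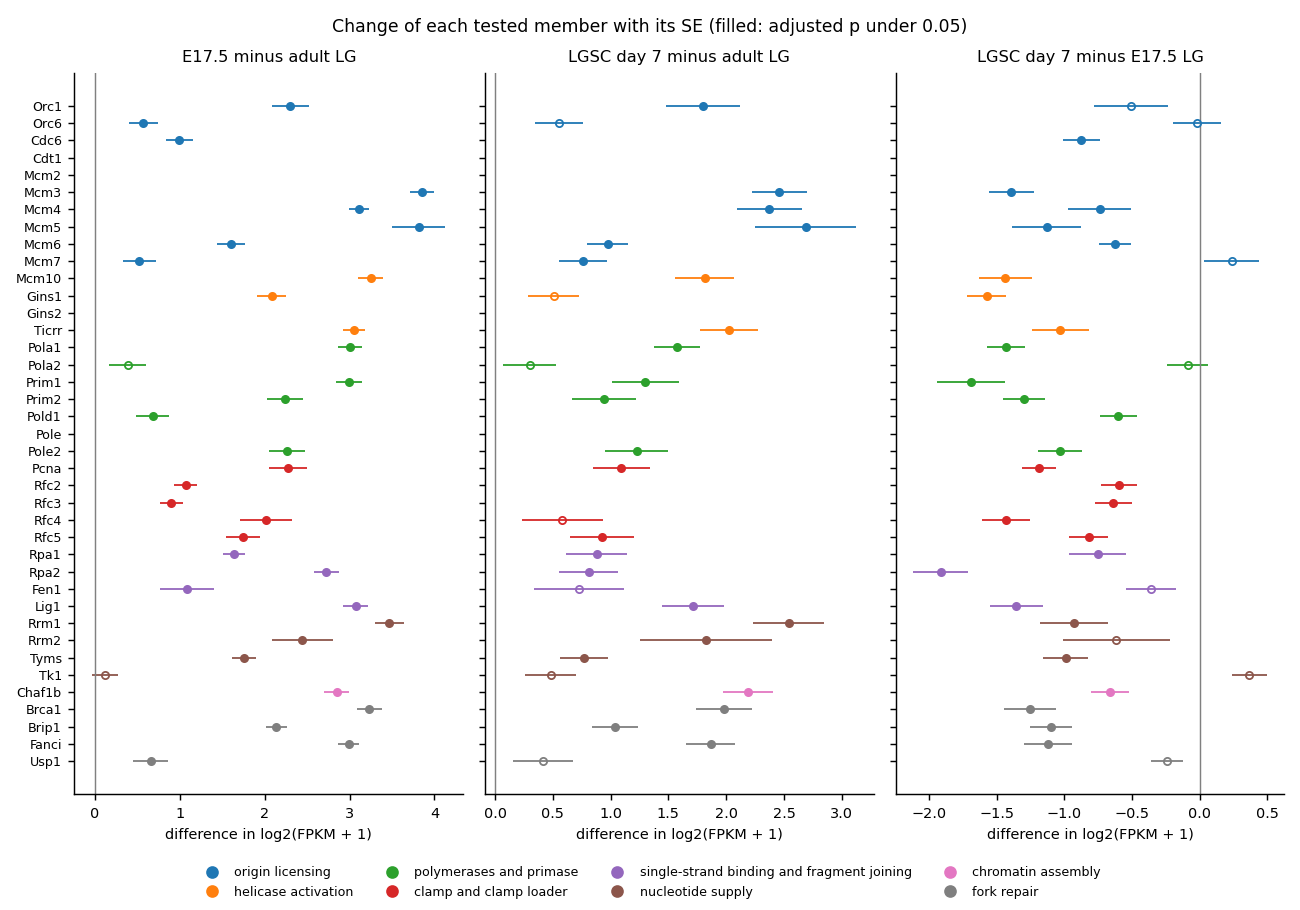
Log2 differences of FPKM + 1 (horizontal axes) with their SE for each tested member (rows), for E17.5 against adult LG, day 7 spheres against adult LG and day 7 spheres against E17.5 LG, with filled points where the adjusted p is under 0.05. The first panel is filled on the right for 33 of 35 members, the second for 24 of 31, and the third is filled on the left for 27 of 35.

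The levels of the 7 groups can be put in order. In 22 of the 27 members within range of P10 the adult mean was the lowest (26.3% of all genes), in 24 all 6 embryonic libraries were above all adult ones (27.9% of all genes), and in 20 they were above all adult and sphere libraries (a share of 12.002% over all genes). Over all 39 measured members these counts were 30, 34 and 24. For Mcm3 the order of means was E17.5 153 ± 5.16, E19.5 142 ± 16.1, day 5 72.7 ± 9.93, day 7 58.6 ± 14.3, day 10 45.2 ± 15.4, day 14 27.8 ± 2.10 and adult 9.70 ± 1.22 FPKM (SD, n = 2 at day 5 and 3 elsewhere). The neighbours E17.5 and E19.5, day 5 and day 7, and day 7 and day 10 overlapped in their libraries.

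Of 67 other replication genes, on a list of partners, checkpoint and repair genes, 49 were tested for the slope, and 12 fell and none rose. Among these were Mcm8, Recql4 and Gmnn from the list of licensing and activation (3 of 11) and Pold2, Dna2, Rnaseh2b, Wdhd1 and Atad5 from that of elongation (5 of 14). The repair and checkpoint genes Mms22l and Chek1 fell too, with none of 5 chromatin genes. The median slope of the 49 was -0.06 per day. Of 8 E2F and cyclin genes tested none passed (median -0.05, 3 with an unadjusted p under 0.05 in limma).

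In tissue 38 of 52 other replication genes were higher at E17.5 than in adult LG. Rrm2b, a reductase subunit used outside S phase, with -0.64, and the helicase Blm, with -0.63, were lower. All calls against adult LG in this paragraph rest on the deposited scale and were not rescaled. The recovered total was 2.67, 2.57 and 1.10 times that scale in adult replicates 1, 2 and 3. By recovered reads Rrm2b was at 165, 243 and 507 in adult LG and 307, 397 and 356 at E17.5. Blm was at 33, 39 and 28 in adult LG and 25, 32 and 17 at E17.5. At E19.5, 37 were higher and 3 lower (Rrm2b, Blm and Wdr48, the partner of Usp1). By recovered reads Wdr48 was at 24, 29 and 112 in adult LG and 56, 55 and 53 at E19.5. Between E19.5 and E17.5 only Nasp, a histone chaperone, passed among the 52, and it was lower at E19.5 (log2 difference -1.11). In day 7 spheres 20 of 47 were higher than in adult LG and Rrm2b was lower, and against E17.5 LG 34 of 49 were lower, while Pold4 and Rnaseh2a were higher. E2F and cyclin genes were mixed. At E17.5 E2f2, E2f3, E2f8, Rbl1 and Cdk2 of 11 tested were higher than in adult LG, and at E19.5 4 were higher and 2 lower (Rbl2 and Cdc25a). Day 7 spheres had E2f3, E2f8 and Rbl1 higher and E2f2 and Rbl2 lower than adult LG, of 10 tested. Against E17.5 Rb1 was higher and E2f1, E2f2, Rbl2, Cdk2 and Skp2 were lower, of 11. By recovered reads E2f2 was at 72, 88 and 221 in adult LG and 75, 148 and 126 at day 7. Rbl2 was at 340, 411 and 692 in adult LG and 611, 522 and 618 at day 7.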

How the data were processed

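RNA sequencing of LGSC spheres and LG was used from 21 of the 24 listed samples, and a day 5 replicate and the passage 6 and 20 samples were not analysed here. Groups came from the sample labels. Libraries were poly-A selected and made with the NEBNext Ultra kit, which does not mark strand, so a gene and an overlapping or antisense partner cannot be told apart. Per the submitters' processing notes, CASAVA 1.8, HISAT2 2.0.5 and featureCounts 1.5.0-p3 were used with build NCBIM37, and the study tested with DESeq2. The authors deposited FPKM values, 1 table per library, and the step from counts to FPKM is not given in the sources used here. The tables held 0 columns of other series. Symbols and exon lengths came from GENCODE M21, which held 52489 of 52636 Ensembl identifiers.

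Dividing low FPKM by the step of 1 read gave recovered reads, whole to within 0.01 for 92.6% to 93.6% of genes up to 1000 reads. At this depth a level under 0.5 FPKM rests on few reads. Tests used limma 3.58.1 in R 4.3.3 (lmFit, and eBayes with trend) on log2(FPKM + 1), two-sided, for genes whose mean in the fitted libraries reached 0.5 FPKM, with Benjamini-Hochberg adjustment over all genes tested and a threshold of 0.05. This scale understates the change of low genes. The tissue groups shared 1 fit. Each fit was checked on simulated data with independent noise of the same size for every gene and no deviation shared by replicate number. This check does not show how the fits do under the spread of these libraries. Tables used Python 3.11.15 with pandas 2.3.3 and numpy 2.4.6, and figures matplotlib 3.10.9.

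The members and lists were chosen with earlier results of these data known. Library values are given for the 2 measured members of each role with the highest mean over the 20 libraries, and for members past the threshold against most others. Samples with the same replicate number deviated together over culture days (mean correlation 0.451, 0.252 to 0.713 over 15 pairs, and -0.214 between other numbers), so the number was used as a block there as an alternative. Further alternatives were a pseudocount of 0.1, no filter or a mean of at least 2 FPKM, median-centred libraries, scaling to recovered reads, limma-voom on recovered reads, other library sets, log2 of the culture day and each library left out. Limma-voom with the block for the slope, leaving out replicate 2 of every culture day, and the border at 0.1 of P10 were chosen after seeing the data. A planned protein comparison was not run. Some genes of the list of other replication genes are not reported by name here.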

Additional observations from a re-analysis of the deposited data

Results flagged for a closer look

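In 14 members the P10 day 7 library, which entered no test, had a deposited value above that of each of the 20 passage 2 and tissue libraries. Whether the RNA was low in those libraries or the deposited values were was not tested. Each was picked out because its P10 value was above the level in the passage 2 spheres of the same culture day by more than 10 times, or stood against values of 0. Among the licensing genes P10 was at 14.6 FPKM for Orc6 (passage 2 day 7 mean 0.983), 3.46 for Cdc6 (0.337), 13.3 for Cdt1 (0.174), 14.7 for Mcm2 (0.129), 31.6 for Mcm6 (1.61) and 34.02 for Mcm7 (1.37). Of the helicase activators, Cdc45 was at 7.82 FPKM and listed at 0 in all 20 other libraries, and Gins2 was at 3.79 (0.0179). The polymerase subunits Pola2, Pold1 and Pole were at 11.6, 8.76 and 3.78 FPKM (0.804, 0.496 and 0.109), and the clamp loader subunits Rfc2 and Rfc3 at 9.84 and 8.91 (0.546 and 0.629). Chaf1a was at 12.8 FPKM and listed at 0 elsewhere, while its partner Chaf1b was at 6.44 in P10 and at 13.6 at passage 2. The highest value of any of the 20 libraries for these 14 genes was 3.50 FPKM (Mcm6). With 1 library of P10 and another gene list these gaps have no replicate check, and among the spheres passage and gene list cannot be told apart. The 9 gland libraries, of whole tissue and not of spheres, were also below P10, with Cdc45 and Chaf1a at 0 reads in each. What lies behind the gaps was not tested.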

How the results depend on the processing

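The median of the members kept its sign in every comparison and setting but E19.5 against E17.5, where it was -0.04 and became 0.04 without E19.5 replicate 1. For day 14 against day 7 the count of members called was 8 with limma-voom and the replicate block together (116 of 12112 genes, 66 higher and 50 lower) and 0 in the other settings. For the slope it was 8 without the filter on low values, 0 with days 7, 10 and 14 only, and 0 to 25 over the fits with 1 library left out, against 21. For LGSC day 7 against adult LG it was 15 to 21 over the fits with 1 library left out, against 24. The cause of these moves was not tested. With the replicate number as a block the counts were 0 for day 14 against day 7, 26 for the slope, 32 and 31 for E17.5 and E19.5 against adult LG, 0 between the embryonic stages, 19 for day 7 against adult LG and 26 for day 7 against E17.5 LG. In tissue the numbers were shared only as numbers (mean correlation -0.012, and 0.007 and 0.026 of day 7 with adult and E17.5 LG), so the block is no pairing there. The split of all genes called in the slope, 101 higher and 233 lower, was 112 and 152 with median-centred libraries and 111 and 160 scaled to reads, and between the embryonic stages 207 and 116 became 126 and 119, or 71 and 66. Of the values of the 16 members followed by library, 724 kept their side of the threshold under the other alternatives, 23 passed and 24 lost it, and with libraries left out 688 kept it, 9 passed and 81 lost it. Depth limits the members under 0.5 FPKM, which entered no test.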
